A study of Mus musculus with 4 samples.

Results

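Heat shock proteins and their partner chaperones were examined in sorted mouse bone marrow cells. The 45 genes were taken from a list drawn up by function, but with earlier results of these data known. Of them 43 could be measured, out of 18193 genes in all. Hsp90ab1, the constitutive cytosolic Hsp90, and Hsf1, the main heat shock factor, had no probe set assigned to a single gene and are not reported. A member was represented by the probe set with the highest mean over all arrays. Of the 43, 31 had further probe sets, which are summarized together and given by gene only for some members.

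The series holds 4 Affymetrix arrays, 2 labelled Alox15-/- and 2 labelled WT, and its design asks how expression differs between these genotypes. Alox15-/- stands for loss of arachidonate 15-lipoxygenase, an enzyme that oxygenates polyunsaturated fatty acids. All mice were C57BL/6 and 8 weeks old per the labels, and no treatment is named. Cells of both groups were sorted as lineage-negative, c-Kit+ and Sca-1+, a gate that holds multipotent progenitors along with the stem cells (HSCs) for which the labels name it. The replicates are called biological, but no animals or pools are stated, so each p-value reflects variation among these arrays alone, some of which may be technical. Values are deposited log2 intensities, and differences are those of the arrays labelled Alox15-/- minus WT with the standard error of the limma fit (SE, n = 2 each). The number of arrays limits the precision.

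The labels were checked first. Alox15 read 10.68 and 10.75 in the arrays labelled Alox15-/-, against 4.63 and 4.35 in WT, a difference of 6.22 ± 0.15 with limma adjusted p = 0.0013. This rise goes against the label. Where the probe set lies relative to the deleted part is not known, and whether the labels are swapped was not tested. A swap would reverse every direction given here. Directions are accordingly given by array label, not by verified genotype. Of the gate's 10 genes, 8 were measured and none lay below the highest bacterial control on every array. Their mean was 10.29 in both arrays labelled Alox15-/-, against 10.52 and 10.44 in WT, with 1 gene higher and 4 lower without overlap. Markers of mature neutrophils, 8 of 10 measured, had a mean of 7.30 and 6.98 in the arrays labelled Alox15-/-, against 5.87 and 6.65 in WT. Of these 8 genes 6 were higher and 1 was lower without overlap, as were 21.4% and 17.1% of all genes tested, and only Mmp8 was below that control throughout. Markers of macrophages, B cells, T and NK cells, erythroblasts and stroma had median differences of -0.04 to 0.20, but some members separated the groups. Of 6 T and NK cell genes 4 were higher and 2 lower without overlap. In the macrophage and monocyte list 2 were higher and 1 lower in this way, and in the B cell list 1 and 1. Ccr2 of the former and Jchain of the latter each differed by 1.00, and Cd68 and Ebf1 of the same lists by -0.27 and -0.42. These genes were singled out after their values were seen. No marker of any list passed the threshold, except that the gate gene Hlf did so with a prior variance that follows the mean level. The part of these cells in the results was not tested. The Gapdh control probe sets for the 3′ and 5′ ends differed by 2.14 and 2.17 in the arrays labelled Alox15-/-, against 2.37 and 2.39 in WT. In bulk samples a change in the share of a cell type and a change in RNA per cell cannot be told apart.

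Chaperones bind unfolded or partly folded proteins and help them to fold, assemble or reach the right compartment. Hsp70 proteins work in ATP-driven cycles with J-domain proteins, which deliver clients, and with exchange factors such as Hsp110 and Bag proteins, while Hsp90 acts later on with its own cochaperones. Mitochondria and the endoplasmic reticulum hold their own versions, and the Cct ring folds actin and tubulin. Most of these genes are active in all growing cells, whereas Hspa1a and Hspa1b are kept low until heat or other proteotoxic stress activates heat shock factor 1, which binds heat shock elements in their promoters and in those of several other chaperone genes.

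The inducible pair read much higher on both Alox15-/- arrays than on either WT array, and the other 41 measured members differed by -0.27 to 0.70. Hspa1b, the stress-inducible cytosolic Hsp70, read 10.19 and 9.92 in the arrays labelled Alox15-/-, against 4.08 and 5.53 in WT. Both arrays labelled Alox15-/- lay more than 4 units above both WT arrays, and the WT arrays lay further apart than the other group's. The difference was 5.25 ± 0.47, with a 95% interval of 4.08 to 6.43 and limma adjusted p = 0.257. Hspa1a, whose protein is almost the same, read 7.77 and 6.96 in the arrays labelled Alox15-/-, against 3.03 and 3.88 in WT. Its groups did not overlap either, and the difference as measured was 3.91 ± 0.38 (95% interval 2.96 to 4.87, limma adjusted p = 0.257). Neither passed the threshold of 0.05 over all genes. With a prior variance that follows the mean level, both passed, at limma adjusted p = 0.00995 for Hspa1b and 0.0114 for Hspa1a.

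The WT level of the pair was at or near background. Both WT arrays read Hspa1a below the highest bacterial control, a probe set without mouse target, which averaged 4.97 in WT. Set against that level, Hspa1a was at least 5.26-fold higher in the arrays labelled Alox15-/-. Hspa1b was below the control in WT replicate 1 and above it in WT replicate 2, and its means of 10.06 ± 0.19 and 4.80 ± 1.02 (SD, n = 2 each) in the arrays labelled Alox15-/- and WT gave a fold of at least 27.8 with WT replicate 1 set to its control level. The measured Hspa1b difference was 4.53 without WT replicate 1 and 5.97 without WT replicate 2. The 2 further Hspa1b probe sets pointed the same way. One, whose name marks probes shared with similar transcripts, read 7.54 and 6.47 in the arrays labelled Alox15-/-, against 3.42 and 3.32 in WT. The other read 6.55 and 5.71 in the arrays labelled Alox15-/-, against 2.53 and 2.94 in WT. Both WT arrays were below the control at each, which leaves bounds of at least 4.1-fold higher at the first and at least 2.23-fold higher at the second on the Alox15-/- arrays. At all 4 probe sets of the pair, Alox15-/- replicate 1 was above Alox15-/- replicate 2. Since Hspa1a and Hspa1b are near-identical copies, their signals may not be separable, and the 4 probe sets are not 4 independent measurements.

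**Figure D1:**
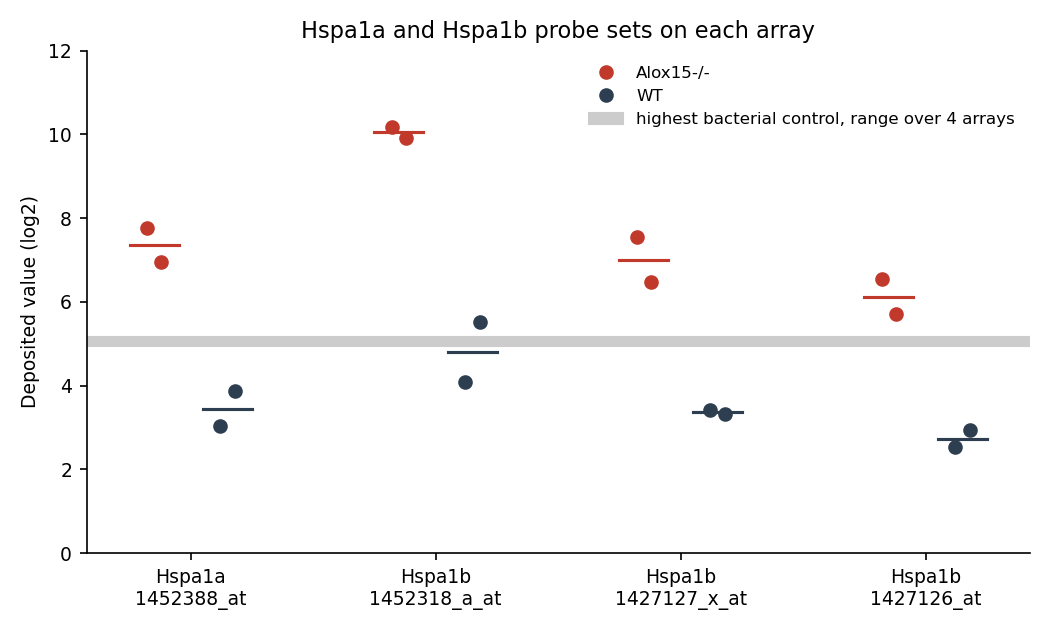
Deposited log2 value (vertical axis) of the 4 Hspa1a and Hspa1b probe sets, for the 2 arrays labelled Alox15-/- (left of each pair) and the 2 WT arrays. Points are arrays, short lines group means and the grey band the range of the highest bacterial control over the 4 arrays; all points of the arrays labelled Alox15-/- lie above the band, and all WT points but 1, Hspa1b at 5.53, lie below it.

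The control region of the pair is shown because probe sets assigned to each copy read high on the same arrays, though their signals may not be separable. RefSeq (GRCm38.p6) places them side by side on chromosome 17, on the minus strand. The 250 bases before the start are given below, 5′ to 3′, with the heat shock element pair in capitals, for Hspa1a at chr17:34972157-34972406 and for Hspa1b at chr17:34959239-34959488.
Hspa1a: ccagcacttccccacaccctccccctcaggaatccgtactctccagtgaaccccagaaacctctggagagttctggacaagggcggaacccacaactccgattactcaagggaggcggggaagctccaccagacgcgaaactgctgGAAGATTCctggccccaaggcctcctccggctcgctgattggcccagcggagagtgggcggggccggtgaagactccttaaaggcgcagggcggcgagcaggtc
Hspa1b: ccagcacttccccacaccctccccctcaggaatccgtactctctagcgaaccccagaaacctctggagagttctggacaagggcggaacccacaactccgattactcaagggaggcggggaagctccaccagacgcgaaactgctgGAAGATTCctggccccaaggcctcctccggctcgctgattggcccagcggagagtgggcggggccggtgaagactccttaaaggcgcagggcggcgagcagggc
The windows were identical at 247 of 250 bases (98.8%). Counted from the 5′ end, with the Hspa1a base first, they differed at C44T, T47C and T249G, all outside the element. The element was searched as GAANNTTC or TTCNNGAA, each of which reads the same on both strands, with overlapping matches counted. Each window held 1 match, starting 104 bases before the start, and 1 CCAAT box. Over all 32851 promoter windows of this length, 12.8% held at least 1 such element and 33.8% a CCAAT box. A match is a run of letters and not a tested binding site.

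Promoter windows were found for 37 of the 45 members, and 11 of these held the element, the inducible pair and 9 others. Of 46 windows of members, 28.3% held it. Windows can overlap, as for Hsph1, for Dnajb6, and for Hspd1 with Hspe1, so the same element can count more than once in this share. The other genes with the element were Cct2, Cct5, Dnaja1, Dnajb4, Dnajb6, Hspb1, Hspd1, Hspe1 and Hsph1. Stretches of 30 bases are shown for 4 of them, with matches in capitals, as further examples of the same pattern.
Hsph1: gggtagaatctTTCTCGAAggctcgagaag
Hspe1: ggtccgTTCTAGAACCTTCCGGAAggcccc
Hspb1: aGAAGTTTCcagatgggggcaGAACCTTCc
Dnaja1: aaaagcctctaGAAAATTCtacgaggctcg
They lie at chr5:149636351-149636380 (minus strand), chr1:55088053-55088082 (plus), chr5:135887801-135887830 (plus) and chr4:40722333-40722362 (plus). The Hspe1 stretch held 3 overlapping matches and faces Hspd1 across a shared promoter. The differences of the 9 genes ran from -0.27 for Hsph1 to 0.10 for Hspe1, with a median of 0.02. The 26 members outside the pair with a window and no match had a median of 0.04. Dnajb1 and Bag3, described below as inducible, were among these, and Hspa8 and Hsp90aa1 had no window. Whether a match divides heat shock factor targets from other genes was not tested.

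Outside the inducible pair, 41 chaperone genes were measured, and none passed the threshold. At an unadjusted limma p under 0.05, 2 of the 43 members were higher, the inducible pair itself, and 0 were lower, against 4.2% higher and 3.57% lower over all genes tested (adjusted, 0.0055% of genes were higher). The 41 genes had a median difference of 0.04, against 0.02 over all genes, and 29 of them were positive and 12 negative, a split of 23 and 18 with each array centred on its median. The 1980 genes at least as bright as the lower quartile of the 41 had 966 positive and 1014 negative differences, with 456 higher and 500 lower without overlap. Groups did not overlap for 12 higher and 4 lower genes of the 41, while over all genes 21.4% were higher and 17.1% lower in this way. Their replicates lay close together, with a median residual SD of 0.06, against 0.15 over all genes and 0.07 over those 1980 bright genes. For 39 of the 41, the 95% interval of the difference lay within 1 unit, a doubling, on either side of 0. The exceptions were Hspa1l, whose interval ran from -1.02 to 2.41, and Bag3, from -0.16 to 1.05.

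**Figure D2:**
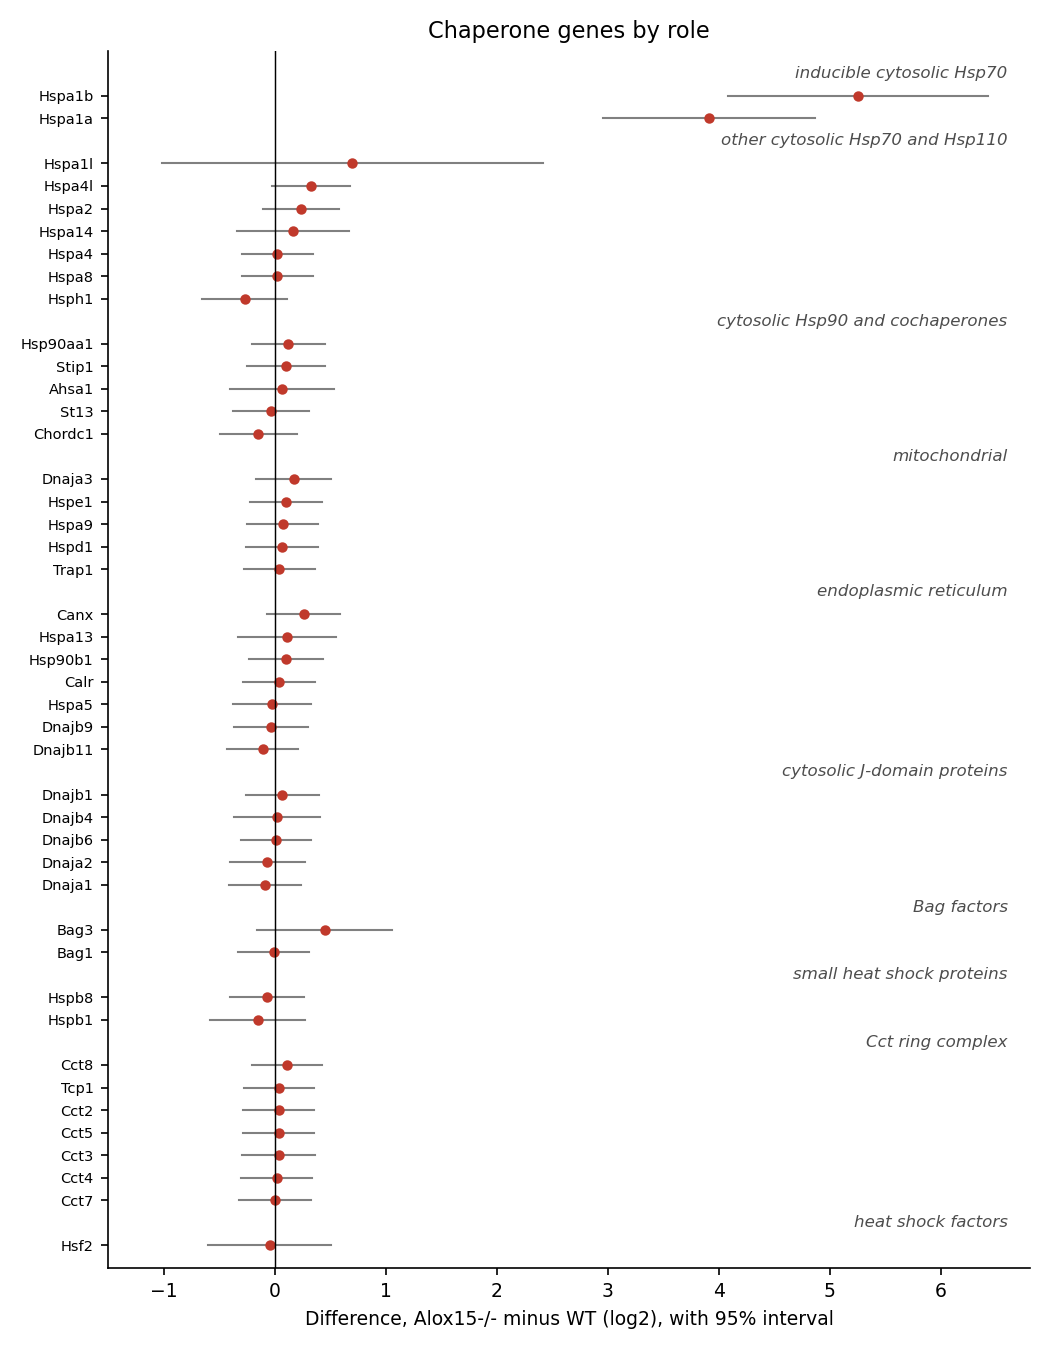
Difference between the arrays labelled Alox15-/- and WT (horizontal axis, log2) for the 43 measured chaperone genes, grouped by role; points are differences and lines 95% intervals of the limma fit. Hspa1b at 5.25 and Hspa1a at 3.91 stand far to the right, and the other 41 genes lie between -0.27 and 0.70.

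Among the other cytosolic Hsp70 and Hsp110 genes, 6 of 7 differences were positive and 0 passed the test, with a median of 0.17. Hspa8, the constitutive Hsp70 of the cytosol, read 13.42 and 13.40 in the arrays labelled Alox15-/-, against 13.35 and 13.42 in WT. These values overlapped and differed by 0.02 ± 0.13. Hspa4, an Hsp110-type exchange factor, differed by 0.02 and Hspa14, a ribosome-associated Hsp70, by 0.17, both with overlapping groups. Hspa4l, a close relative of Hspa4, read 10.58 and 10.39 in the arrays labelled Alox15-/-, against 10.14 and 10.18 in WT. Both of the first were above both of the second, and the difference of 0.33 ± 0.14 had limma adjusted p = 0.661. Hspa2, known for its part in sperm formation, differed by 0.24 without overlap.

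Hsph1, the inducible Hsp110, went the other way. It read 11.17 and 11.40 in the arrays labelled Alox15-/-, against 11.47 and 11.64 in WT. The groups did not overlap and the difference was -0.27 ± 0.15 (limma adjusted p = 0.719), the most negative of the 43. At the other Hsph1 probe set the difference was -0.23, with overlapping groups. Hspa1l, a testis-enriched Hsp70 that is the next gene to Hspa1a, read 6.59 and 6.81 in the arrays labelled Alox15-/-, against 4.91 and 7.09 in WT. WT replicate 1 alone was low, the highest value was also a WT array, and the difference of 0.70 ± 0.68 became -0.39 without WT replicate 1.

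Hsp90aa1, the inducible cytosolic Hsp90, read 12.75 and 12.86 in the arrays labelled Alox15-/-, against 12.70 and 12.66 in WT. The groups were apart by less than 0.1 at their nearest arrays, and the difference was 0.12 ± 0.13 (limma adjusted p = 0.852). Its other 4 probe sets gave 0.04 to 0.42. The brighter of them gave 0.22 and 0.21, both higher without overlap, and those at 0.42 and 0.04 lay close to the bacterial controls. Of the cochaperones, Stip1, which links Hsp70 to Hsp90, differed by 0.10, Ahsa1, which activates the Hsp90 ATPase, by 0.07 and St13, an Hsp70 cofactor, by -0.04, all with overlapping groups. Chordc1, an Hsp90 partner, differed by -0.15 without overlap.

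All 5 mitochondrial genes had positive differences, with a median of 0.07 and 0 past the threshold. Groups did not overlap for 4 of them, all higher, against 21.4% higher and 17.1% lower over all genes. Hspd1, the Hsp60 of the mitochondrial folding chamber, read 12.81 and 12.91 in the arrays labelled Alox15-/-, against 12.79 and 12.79 in WT. Hspe1, its Hsp10 lid, read 12.47 and 12.58 in the arrays labelled Alox15-/-, against 12.44 and 12.41 in WT. In both, Alox15-/- replicate 2 was the highest array and Alox15-/- replicate 1 lay within 0.1 of WT. Hspa9, the mitochondrial Hsp70, differed by 0.07, Dnaja3, its J-domain partner, by 0.17 and Trap1, the mitochondrial Hsp90, by 0.04. At its other probe sets Dnaja3 gave -0.25 and 0.36, each without overlap and in opposite directions. The other probe sets gave -0.01 to 0.35 for Hspa9, 0.38 for Trap1 and 0.12 for Hspe1.

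In the endoplasmic reticulum, 4 of 7 differences were positive, with a median of 0.04. Hspa5, the BiP chaperone whose rise marks the unfolded protein response, read 12.14 and 12.32 in the arrays labelled Alox15-/-, against 12.30 and 12.20 in WT. These overlapped, with a difference of -0.02 ± 0.14. Canx, a membrane lectin that holds glycoproteins during folding, read 11.30 and 11.28 in the arrays labelled Alox15-/-, against 11.10 and 10.97 in WT. Its difference of 0.26 ± 0.13 (limma adjusted p = 0.691) was the largest of the compartment, and its other probe sets gave 0.22 at both. Calr, its soluble relative, differed by 0.04, Hsp90b1, the Hsp90 of the compartment, by 0.10 and Hspa13 by 0.11. The J-domain partners Dnajb9 and Dnajb11 differed by -0.03 and -0.11, the second without overlap.

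Cytosolic J-domain genes had a median of 0.01, and all 5 lay within 0.1 of 0. Dnajb1, the main heat-inducible partner of Hsp70, read 12.33 and 12.34 in the arrays labelled Alox15-/-, against 12.20 and 12.33 in WT. The difference was 0.07 ± 0.13 (limma adjusted p = 0.923). Dnaja1 and Dnaja2, general partners of Hsp70, differed by -0.09 and -0.07, Dnajb4 by 0.02 and Dnajb6, which suppresses protein aggregation, by 0.01. Bag1, an exchange factor, differed by -0.01. Bag3, an inducible exchange factor, read 6.39 and 5.73 in the arrays labelled Alox15-/-, against 5.54 and 5.68 in WT. Alox15-/- replicate 1 alone was high, the difference of 0.45 ± 0.24 had limma adjusted p = 0.706, and it was 0.12 without that array.

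The Cct ring complex had the closest values. The 7 measured subunits differed by 0.00 to 0.11, all on the positive side except that Cct4 and Cct7 turned negative with each array centred, with a median of 0.04 and a median residual SD of 0.03. Cct7 read 13.46 and 13.50 in the arrays labelled Alox15-/-, against 13.43 and 13.52 in WT. Tcp1, the first subunit, read 13.11 and 13.12 in the arrays labelled Alox15-/-, against 13.08 and 13.08 in WT. Its groups did not overlap, though they were only 0.04 apart on average. Cct8 differed by 0.11, Cct2 and Cct5 by 0.04, Cct3 by 0.03 and Cct4 by 0.02. The highest value on every array was 14.39, and whether small changes are compressed at probe sets as bright as those of Cct7 and Tcp1 was not tested.

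The small heat shock proteins and the remaining heat shock factor were read at low levels. Hspb1, an ATP-independent holdase, read 5.62 and 5.99 in the arrays labelled Alox15-/-, against 5.93 and 5.99 in WT. The difference was -0.15 ± 0.17, with 0.15 at its other probe set. Hspb8, which works with Bag3, differed by -0.07. Hsf2 read 5.89 and 6.21 in the arrays labelled Alox15-/-, against 5.84 and 6.34 in WT, an overlap with a difference of -0.05 ± 0.22.

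**Figure D3:**
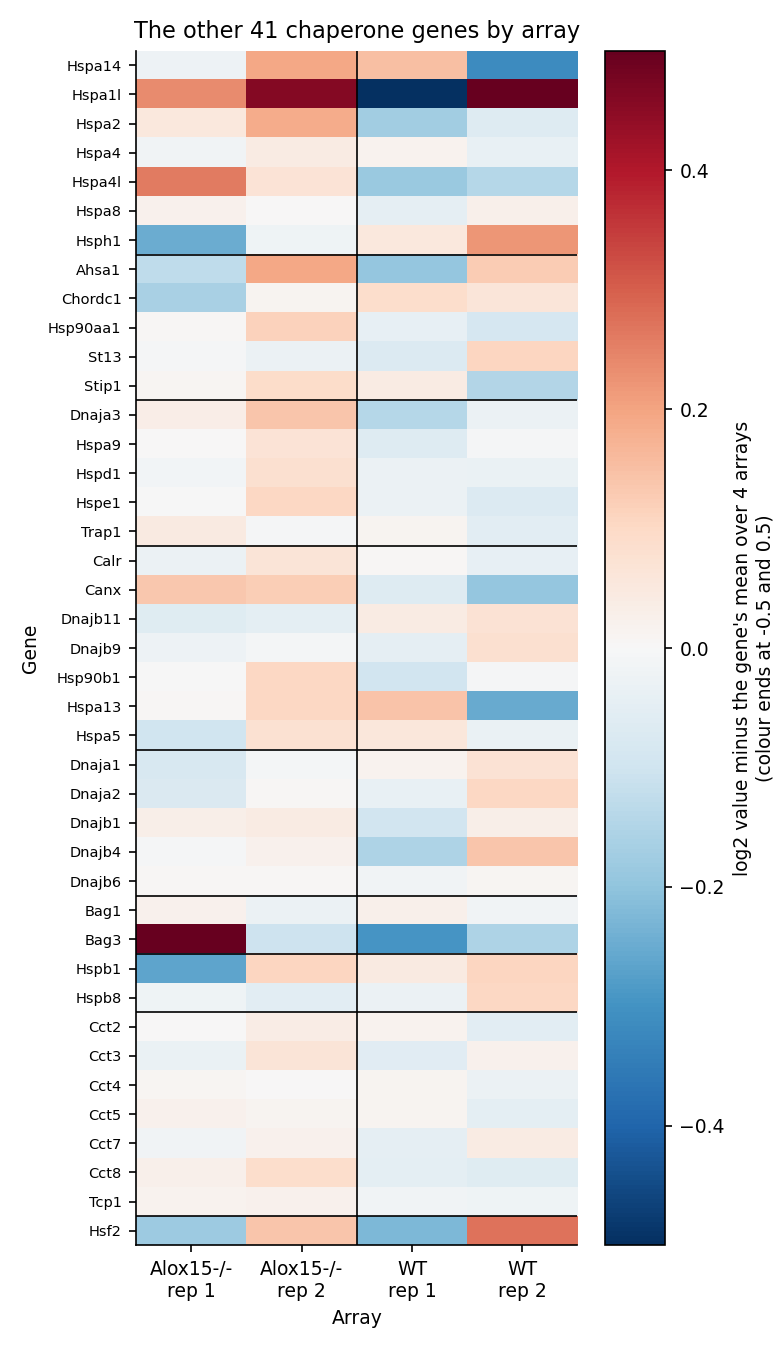
Log2 value of each of the 41 chaperone genes outside the inducible pair (rows, grouped by role with lines between groups) on each array (columns, the arrays labelled Alox15-/- left), as colour from blue (below the gene's mean over 4 arrays) to red (above it), ending at 0.5 either way. Most cells are pale; the strongest colours are Hspa1l, at 4.91 in WT replicate 1, and Bag3, at 6.39 in Alox15-/- replicate 1.

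The dimmer probe sets of these genes told a somewhat different story from the brightest ones. For the 30 of the 41 genes with several probe sets, the brightest had a median difference of 0.03, and the other 69 had 0.12, of which 52 were positive. Groups did not overlap at 31 of the 69 on the higher side (44.9%) and at 3 on the lower side. For such further probe sets of all genes, the shares were 21.1% and 17.3%, and for those of the 1348 genes at least as bright as the chaperones' lower quartile 25.9% and 17.2%. The probe sets of a gene share transcripts, so they are not independent. The gap between the Gapdh ends, given above, separated the same groups of arrays, and its part in this shift was not tested.

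The widest such disagreement was within Hspa8. One further probe set read 10.49 and 10.39 in the arrays labelled Alox15-/-, against 9.22 and 9.50 in WT. The groups lay well apart, with a difference of 1.08 ± 0.16 (limma adjusted p = 0.477 over all probe sets), whereas the other 3 Hspa8 probe sets gave 0.00 to 0.02. Dnajb1 likewise gave 0.52 at its dimmer probe set, with 8.92 and 8.56 in the arrays labelled Alox15-/-, against 8.33 and 8.11 in WT. Ahsa1 gave 0.60 at its second probe set, without overlap, and Hspa13 gave 0.57 at 1 of its 3 others. Dnajb4 gave -0.65 at a probe set where Alox15-/- replicate 2 alone was low, at 5.29.

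**Figure D4:**
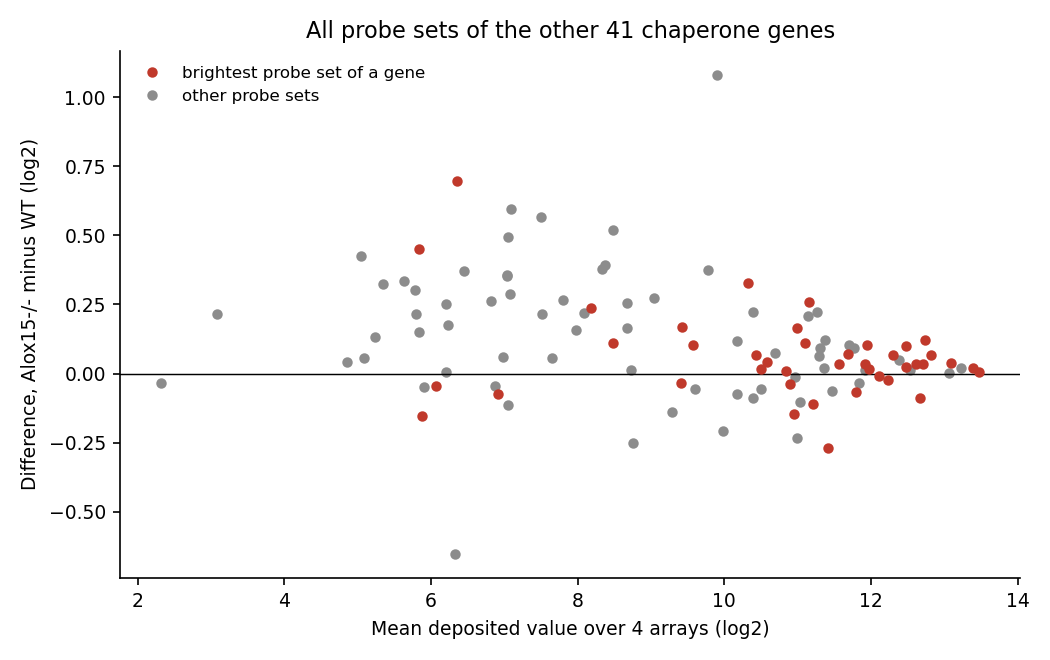
Difference between the arrays labelled Alox15-/- and WT (vertical axis, log2) against the mean value over 4 arrays (horizontal axis, log2) for every probe set of the 41 genes outside the inducible pair, with the brightest of each gene in red and the others in grey. The highest grey point is the Hspa8 probe set at 1.08, and the lowest is Dnajb4 at -0.65.

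Position was examined next, since the pair lies next to Hspa1l in a gene-dense part of chromosome 17. The 10 measured genes on each side had a median difference of 0.14, with 15 of 20 positive, and 0 past the threshold. Over all genes the median was 0.02, with 9781 differences positive and 8412 negative. Without overlap 5 of the 20 were higher and 1 was lower, against 21.4% higher and 17.1% lower over all genes. Lsm2, an RNA-binding protein gene next to Hspa1l, read 8.85 and 9.15 in the arrays labelled Alox15-/-, against 8.31 and 8.29 in WT. This was the largest difference of the 20, 0.70 ± 0.16 (limma adjusted p = 0.52), and the groups did not overlap. Skiv2l, an RNA helicase gene, differed by 0.52 ± 0.13 (limma adjusted p = 0.573). The gene on the other side, 1110038B12Rik, differed by -0.02. No neighbour had a difference near those of the inducible pair.

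**Figure D5:**
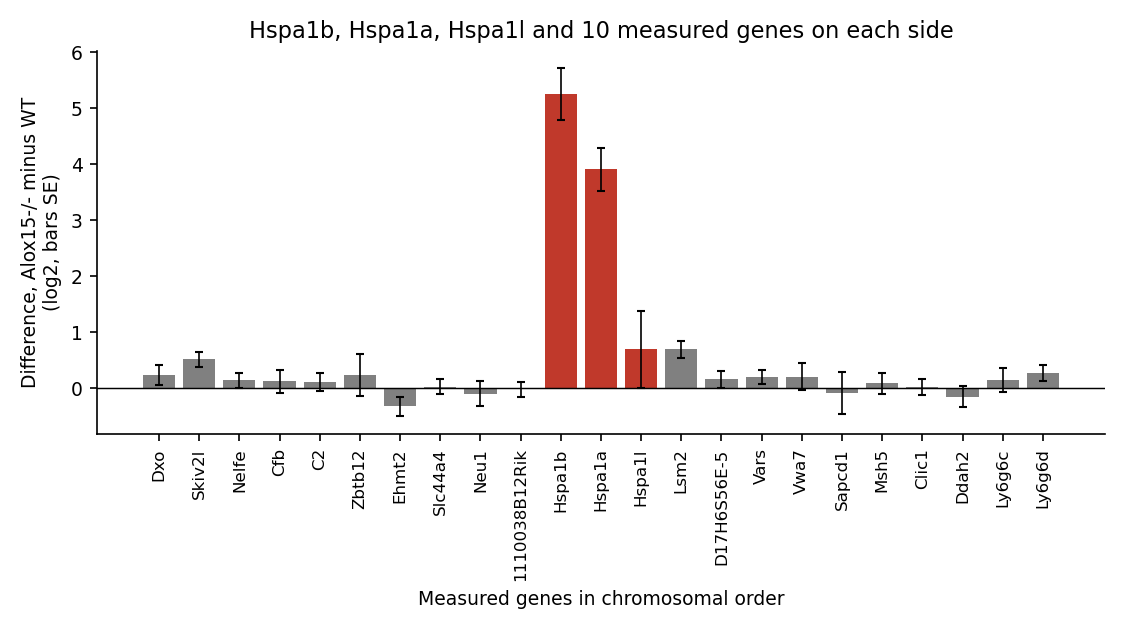
Difference between the arrays labelled Alox15-/- and WT (vertical axis, log2; bars and SE of the limma fit) for Hspa1b, Hspa1a and Hspa1l (red) and the 10 measured genes on each side (grey), in chromosomal order. Hspa1b and Hspa1a stand at 5.25 and 3.91, and the neighbours lie between -0.32 and 0.70.

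The 4 further lists place the pair beside related responses, and no gene of them passed the threshold, except that Unc45b did so, as the inducible pair did, with a prior variance that follows the mean level. Over all genes, 4.2% were higher and 3.57% lower at an unadjusted p under 0.05. Of 38 other chaperones and cofactors, 1 was higher and 2 were lower at an unadjusted p under 0.05, with a median of 0.04. They were Unc45b, a myosin chaperone that works with Hsp90, at -2.92 ± 0.41, the mitochondrial protease Lonp1 at 0.72 ± 0.19 and the Hsp70 relative Hspa12b at -0.39 ± 0.13. Unc45b read 6.16 and 4.88 in the arrays labelled Alox15-/-, against 8.45 and 8.43 in WT. Its value in Alox15-/- replicate 2 lay below the highest bacterial control. The cause of its difference was not tested. Of 14 other stress-inducible genes, 2 were higher by that measure, with a median of 0.16, and 7 were higher and 2 lower without overlap, against 21.4% and 17.1% of all genes. Without overlap, 7 of the other chaperones were higher and 4 lower, 8 of the unfolded protein response genes were higher and 2 lower, and 2 of the immediate early genes were higher and 6 lower. The 2 stress-inducible genes higher at an unadjusted p under 0.05 were the metallothionein Mt1 and Gclm, of glutathione synthesis. Mt1 differed by 0.77 ± 0.15, with -0.21 at its other probe set, and Gclm by 0.63 ± 0.23. Of 24 unfolded protein response genes, 1 was higher, the chaperone cofactor Sdf2l1 at 0.51 ± 0.18, and 1 lower, Asns, which makes asparagine, at -0.52 ± 0.15. Of 19 immediate early genes 1 was lower, Egr1, which read 7.24 and 6.76 in the arrays labelled Alox15-/-, against 8.33 and 8.34 in WT.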

How the data were processed

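Expression was measured on 4 arrays, 2 labelled Alox15-/- and 2 labelled WT, grouped by sample title. The deposited values are log2 intensities, and the submitters' processing notes name Expression Console 1.1 and RMA, a method of background correction, quantile normalization and probe set summary. No genome build is given in the sources used here. Per the labels' protocols a whole-transcript sense labelling kit was used. The probe set names are those of a 3′ expression array, a design usually paired with another kind of target, and what this does to the intensities was not tested.

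Gene symbols came from the platform's annotation table. Of 45101 probe sets, 34945 had 1 symbol, 932 had several and were not used, and control probe sets were left out. One probe set per gene, the brightest over all 4 arrays, gave 18193 genes. Dim genes were kept. Two-sided tests over all genes used lmFit and eBayes of limma 3.58.1 (R 4.3.3), without a block, and p-values were adjusted by Benjamini-Hochberg with a threshold of 0.05. The code was tested on simulated data. Background was judged by the highest of 27 bacterial control probe sets on each array. Promoter sequences are RefSeq's (GRCm38.p6). Figures were drawn with matplotlib 3.10.9.

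The 45 members and all lists were chosen with earlier results of these data known. All members are named. Of each other list and of the neighbours, up to 3 genes were named, taken by absolute difference from those whose groups did not overlap and whose unadjusted p was under 0.05. Deviations of equally numbered replicates were hardly correlated across genes (-0.02). This value cannot show whether the arrays were handled in pairs, which the labels do not state. Alternatives covered normalization, the prior variance, a filter, the choice of probe sets, the replicate block and each array left out.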

Additional observations from a re-analysis of the deposited data

How the results depend on the processing

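All alternatives were planned. The number of genes past the threshold was 22 with a mean-dependent prior variance, 2 of them from the 43 measured members and 1 the chaperone Unc45b, 2 with every probe set tested (Alox15 and Fam107b), and 0 without any 1 array, against 1, Alox15, as reported. Without variance moderation the 1 gene called was Rac2 and not Alox15; Fam107b and Rac2 were chosen after their values were seen. The replicate block gave 1 gene and 0 chaperones. Limma adjusted p over these settings ran from 0.0114 to 0.952 for Hspa1a and from 0.00995 to 0.952 for Hspa1b, and their differences without 1 array were 3.49 to 4.34 for Hspa1a and 4.53 to 5.97 for Hspa1b. The median of the other 41 was 0.0069 with each array centred, 0.0853 with the mean over probe sets, and 0.0188 to 0.065 without 1 array. Of the 43 genes, 23 kept their sign under all 12 settings that give differences. Signs turned with centring for Hspa4 (-0.0069), Hspa8 (-0.0075), Dnajb4 (-0.0125), Dnajb6 (-0.0194), Cct4 (-0.0138) and Cct7 (-0.025), and for Cct7 with quantile normalization (-0.0267) and Bag1 with cyclic loess (0.0003). With the mean over probe sets they turned for Hspa5 (0.0871), Hspb8 (0.0388), Dnaja2 (0.0827), Dnajb4 (-0.0888), Dnajb6 (-0.04) and Hsf2 (0.0853). Without 1 array the difference ran across 0 for Ahsa1 (-0.0938 to 0.2262), Bag1 (-0.0344 to 0.0169), Calr (-0.0119 to 0.0831), Cct3 (-0.015 to 0.0812), Cct4 (-0.0062 to 0.0362), Cct7 (-0.0375 to 0.045), Dnaja2 (-0.1375 to 0.005), Dnajb4 (-0.1288 to 0.1612), Dnajb6 (-0.0038 to 0.0225), Dnajb9 (-0.0962 to 0.0288), Hsf2 (-0.295 to 0.2025), Hspa13 (-0.0875 to 0.3075), Hspa14 (-0.0662 to 0.3988), Hspa1l (-0.3912 to 1.7862), Hspa4 (-0.0081 to 0.0519), Hspa5 (-0.1125 to 0.065), Hspa8 (-0.0125 to 0.055), Hspb1 (-0.3388 to 0.0312) and St13 (-0.1262 to 0.0512). The filter kept 12735 genes and all 43 chaperones. Fits without 1 array leave 1 degree of freedom among samples and assume that a lone array varies like the other group. The causes of these shifts were not tested.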
